A study of Mus musculus with 4 samples.

Results

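Among ILC2-enriched cells sorted from mouse liver and lung, the cluster that the authors named gdT_TypeII was defined by 28 genes that were on average higher there than in all other sorted cells. These were its rows in the authors' table of cell type markers, which held 1679 genes for 21 types, and the comparison given beside them is with the 136 genes of the type ILC2. The 28 genes included *Il1rl1*, with the widest difference from other cells, and *Gata3*, and 25 of them (89.3%) were also listed for ILC2. None was a gene of the CD3 complex or of a T cell receptor, but only 1.67% of the genes in the table were listed for the cluster, so that a count of 0 among few genes says little. As its list neither carries nor refutes the label gamma delta T cell, the cells are called here by the authors' cluster name.

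The cells came from wild type 8-week-old BALB/c mice that received intraperitoneal PBS or rIL-33 (0.5 µg) daily for 5 days. There were 4 groups, liver and lung after each treatment, with 1 droplet-based single-cell library each, made from pooled tissues of several mice. Every library was sorted as lineage-negative, CD127-positive, Thy1-positive and ST2-positive, and the lineage antibodies included those to CD3e and TCRb for T cells, CD45R for B cells, and CD11b, Ly6c and Ly6G for myeloid cells. ST2 is the protein product of *Il1rl1*, so this gene was also part of the gate. The deposited values were merged over the 4 libraries, so neither rIL-33 with PBS nor liver with lung was compared here, there was no replicate, and no p-value is given.

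Gamma delta T cells are lymphocytes that carry a T cell receptor of a gamma and a delta chain, which reaches the surface with the CD3 chains. They are commonly grouped, like helper T cells and innate lymphoid cells (ILCs), by the cytokines they release: interferon gamma in type I, IL-4, IL-5 and IL-13 in type II, and IL-17 in type III. ILC2s have no antigen receptor. They depend on the transcription factor GATA3, respond to IL-33 through ST2, and release type 2 cytokines together with the growth factors amphiregulin (*Areg*) and GM-CSF (*Csf2*). The genes that tell a type II gamma delta T cell from an ILC2 are thus those of the receptor complex.

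For each listed gene the table gave the percentage of cells above 0, in the cluster and in all other cells, which is called the share here. Sizes of the types were solved from these shares. The cluster gdT_TypeII made up 1.58% ± 0.0400 (SE of the fit) of all cells and ranked as 13 of 21 types by size. It held 7.16% of the cells named gdT, and there were 27.4 ILC2 cells for each of its cells. Its list was the shortest of all, followed by CD8_Effector with 94 genes. In all, 1.40% of the 2000 features tested were listed for it.

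The scale of the shares limits how they can be read. For the 25 genes shared with ILC2, the share in ILC2 had a median of 78.7% in this table, but 59.0% among the cells kept as ILC2s in the authors' second table, which compares 10 ILC2 subclusters. It was higher in the first table for 25 of 25 genes and by over 10 percentage points for 18. *Tnfsf11*, which encodes the cytokine RANKL, had the widest gap, with 89.3% of ILC2 in the first and 20.2% of ILC2s in the second, while *Gata3* was at 93.0% and 90.9%. By the paper, the ILC2s of the second table were those left once cells with markers of other lineages were taken out. The sources do not state how far they are the cells of the type ILC2, and the source of the gap was not tested. A share in the cell type table is therefore not read here as a detection rate, and shares are compared below only within a table.

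**Figure D1:**
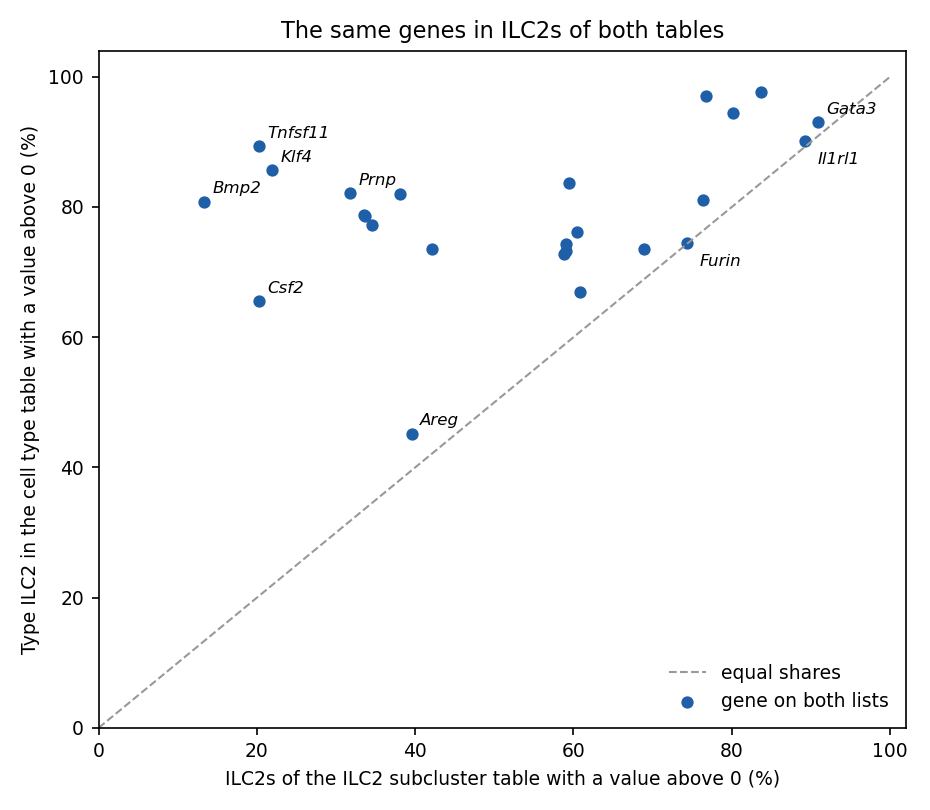
ILC2s with a value above 0 for the 25 genes listed for both gdT_TypeII and ILC2, in the ILC2 subcluster table (x axis, percent) and in the cell type table (y axis, percent). Each point is 1 gene and the dashed line marks equal shares; *Tnfsf11* lies farthest above it, and *Gata3* and *Furin* lie close to it.

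The 4 genes given as markers of the cluster were listed for it and for ILC2. *Il1rl1* (GRCm38 chromosome 1, 40429570 to 40465415, plus strand, protein-coding) had a value above 0 in 95.3% of gdT_TypeII cells against 65.6% of other cells, the widest difference of the 28 genes. It was also listed for ILC2 at 90.2% and for ILC2_2, a minor type with an ILC2 label, at 85.8%. *Gata3* (chromosome 2, 9857078 to 9890034, minus strand) was at 97.6% against 74.0%, with ILC2 at 93.0% and no further type listing it. Both genes thus had their highest listed share in gdT_TypeII. *Csf2* (chromosome 11, 54247271 to 54249667, minus strand) was at 59.8% against 49.4%, below 65.5% in ILC2 and 69.9% in ILC1_ILC3. *Areg* (chromosome 5, 91139599 to 91148432, plus strand) was at 46.3% against 44.0%, beside 45.2% in ILC2 and 62.7% in ILC2_2. The last difference was 2.3 percentage points, so that *Areg* hardly separated the cluster by its share of cells.

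To set these markers beside their sequence, windows from 250 bases before to 50 after a transcript start were read from RefSeq (GRCm38.p6), which held 26 windows for 24 of the 28 genes. A set of 3 motifs was searched on both strands: TGANTCA for AP-1, TGACGTCA for the cyclic AMP response element and AGATAA for GATA factors. The RefSeq start can differ from the start of the gene in GENCODE. Whole windows lay inside the GENCODE gene for *Gata3*, *Hs3st1*, *Mctp1*, *Rnf128*, *Ccdc184* and the downstream starts of *Il1rl1* and *Furin*. The window of *Csf2* lay wholly upstream of its GENCODE start. The windows of *Il1rl1* at its first start (chr1:40429320-40429619, plus strand) and of *Areg* (chr5:91139349-91139648, plus strand) are shown because these genes had the widest and the narrowest difference of the 4 markers. Capitals mark a GATA motif in the first and a cyclic AMP response element in the second.
Il1rl1: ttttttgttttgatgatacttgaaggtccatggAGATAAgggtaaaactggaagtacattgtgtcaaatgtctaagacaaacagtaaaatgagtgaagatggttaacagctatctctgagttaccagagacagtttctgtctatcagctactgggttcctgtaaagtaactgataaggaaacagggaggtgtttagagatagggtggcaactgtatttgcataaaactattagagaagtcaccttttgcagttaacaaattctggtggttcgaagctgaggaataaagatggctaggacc
Areg: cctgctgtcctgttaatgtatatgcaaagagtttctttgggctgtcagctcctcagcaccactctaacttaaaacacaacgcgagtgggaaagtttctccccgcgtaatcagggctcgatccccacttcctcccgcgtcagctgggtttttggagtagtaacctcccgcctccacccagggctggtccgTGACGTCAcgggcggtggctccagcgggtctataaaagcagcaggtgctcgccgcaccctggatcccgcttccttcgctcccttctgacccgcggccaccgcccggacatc

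Few windows of the other genes held a motif. The AP-1 motif was in the windows of *Mctp1*, *Prnp* and *Zfp36l1*, 3 of 26 windows, and in 7.81% of all 32851 windows. The cyclic AMP response element was in those of *Areg* and *Hlf*, 2 of 26, and in 1.79% of all windows. The GATA motif was in those of *Csf2* and *Il1rl1*, 3 of 26, and in 11.2% of all windows. The windows of *Gata3*, *Fos* and *Fosb* held none of these letters. A match is a string of letters and does not show binding.

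The defining genes of a T cell were looked for next. Of 4 CD3 genes 3 were in the table, and all 3 were listed for each of the other 4 types named gdT and for neither gdT_TypeII nor ILC2. *Cd3e*, a signalling chain of the complex, was at 99.2% of gdT_TypeIII_ITGAE, 98.8% of gdT_TypeIII_CD163l1, 97.4% of gdT_TypeI and 97.0% of gdT_Naive. Of 12 gamma delta receptor genes 6 were in the table. The other gdT types listed 4 or 5 of these, ILC2_2 listed 2, ILC2 listed 1 and gdT_TypeII listed 0. Only 1.67% of the genes in the table were listed for gdT_TypeII, against between 8.64% and 11.7% for the other gdT types, so that a count of 0 among 6 genes is near the share over all genes. *Trdc*, the constant region of the delta chain, was at 99.3% of gdT_TypeIII_CD163l1, 96.7% of gdT_TypeIII_ITGAE, 96.4% of gdT_Naive and 77.0% of gdT_TypeI, and was on no other list. The 1 receptor gene of ILC2 was the variable segment *Trdv4*, at 57.8%. None of 9 alpha beta T cell genes, such as *Trac* or *Cd4*, and none of the 8 genes for T cell receptor signalling in the table was listed for gdT_TypeII.

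A missing listing does not show that a gene was absent. It leaves the gene lower in the cluster, equal, too rare or short of the authors' threshold, and the table holds no share of *Cd3e* or *Trdc* for gdT_TypeII. With values above 0 in 83.5% and 71.0% of all cells, *Cd3e* and *Trdc* were not too rare to be listed. The larger share of any listing, inside or outside, was at least 25.2%. Over the cells of all types that did not list them, gdT_TypeII included, the mean share was 77.4% for *Cd3e* and 67.2% for *Trdc*. ILC2, with 43.2% of all cells, made up most of this pool and gdT_TypeII, with 1.58%, little of it. The mean is thus no guide to the share in gdT_TypeII. For the second table the authors had excluded cells by markers of other lineages, *Cd3* among them, and its shares are not compared with those of the first. There *Cd3e* was at 5.8%, *Cd3g* at 32.9%, *Trdc* at 7.7%, *Tcrg-C1* and *Trdv4* each at 26.0% and *Tcrg-C4* at 52.9%. The paper describes the levels of *Cd3g* and *Tcrg-C1* in ILC2s as very low beside those in gamma delta T cells. It also reports that TCRg was undetectable in ILC2s by flow cytometry.

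**Figure D2:**
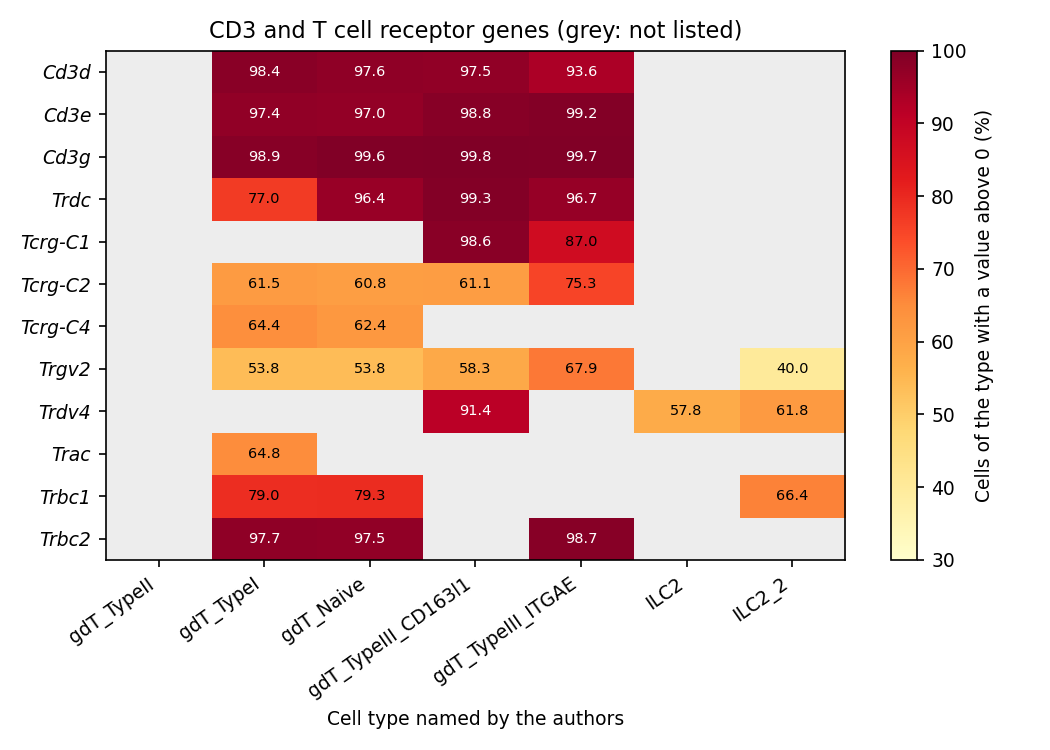
Cells with a value above 0 (percent, colour and printed value) for CD3 and T cell receptor genes (rows) in the 5 types named gdT and the 2 types named ILC2 (columns), from the cell type table; grey cells are genes not listed for that type. The column of gdT_TypeII is empty, whereas the other 4 gdT types list *Cd3d*, *Cd3e*, *Cd3g* and *Trdc*.

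The 25 genes shared with ILC2 made up 18.4% of the 136 genes of the ILC2 list, and 8.10% of the 1679 genes in the table were listed for ILC2. Both types were compared with pools of other cells that overlap and that each hold the other type. ILC2_2 listed 14 of the 28 genes, against 11.9% of all genes. ILC1_ILC3 listed 8, against 13.4%. Among the types named gdT, gdT_TypeIII_ITGAE listed 5 (17.9%) against 11.7% of all genes and gdT_TypeIII_CD163l1 listed 4 (14.3%) against 11.4%. The type gdT_Naive listed 1, against 8.87%, and gdT_TypeI listed 0, against 8.64%. No gene was listed for gdT_TypeII alone, where 37.8% of the genes in the table were listed for 1 type only. Of the 28 genes, 5 were listed for 2 types, 12 for 3 types and 11 for more, up to 8 types for *Zfp36l1*.

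With the solved sizes, the share in cells of neither type could be derived for the 25 shared genes. Its median was 46.8%, with a range from 36.8% for *Csf2* to 88.8% for *Zfp36l1*, against medians of 76.8% in gdT_TypeII and 78.7% in ILC2. That both types lie above the cells of neither type follows from the choice of genes listed for both. The share was higher in gdT_TypeII than in ILC2 for 15 genes and lower for 10, with a median difference of 1.1 percentage points. From all other cells, gdT_TypeII differed by at least 20 percentage points for 9 of its 28 genes, by at least 10 points for 18 and by less for 10, whereas the median difference was 21.3 points over the ILC2 list and 18.4 points over all listings.

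**Figure D3:**
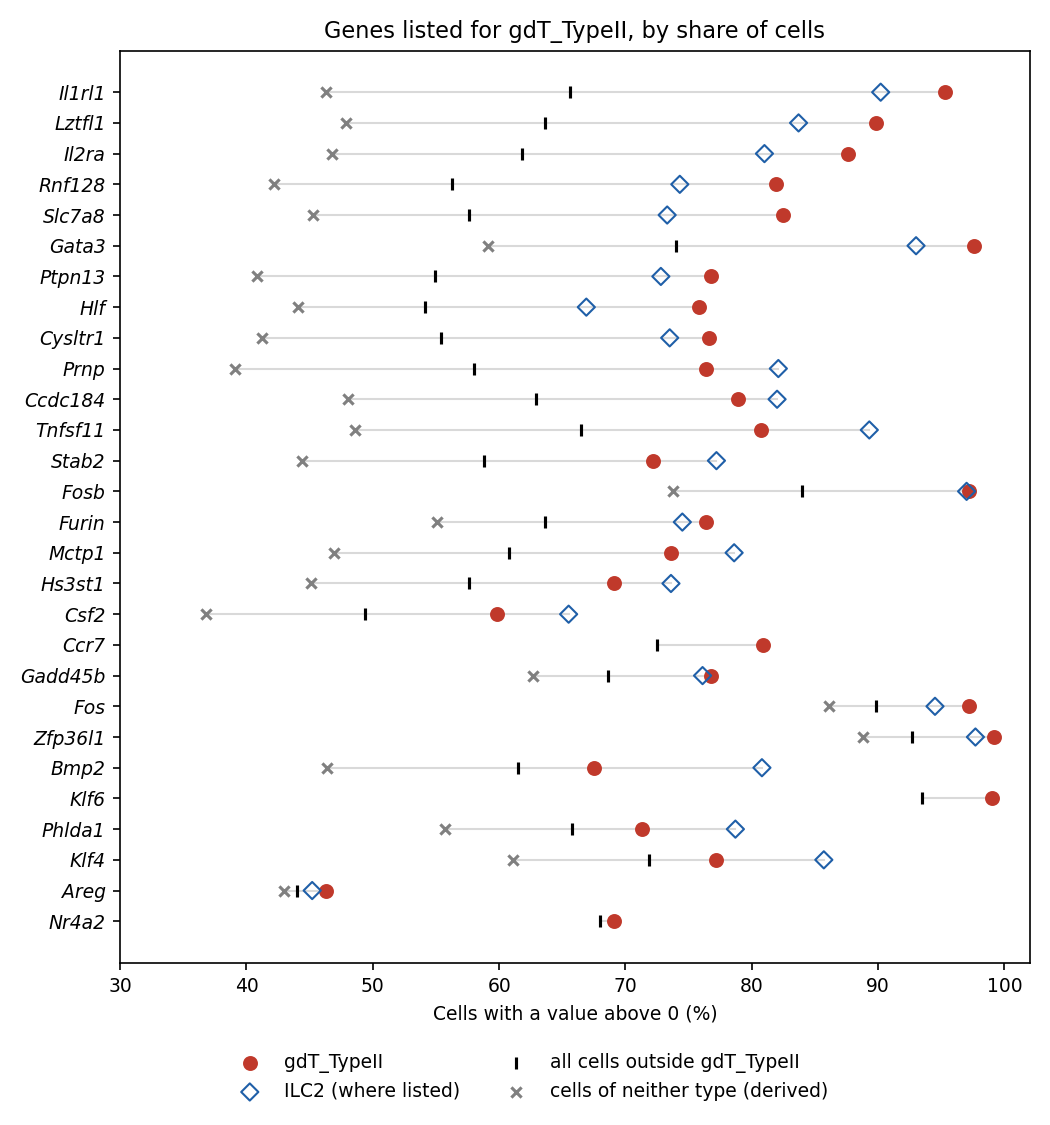
Cells with a value above 0 (x axis, percent) for the 28 genes listed for gdT_TypeII (rows, ordered by the difference from all other cells). Red circles are gdT_TypeII, blue diamonds ILC2 where it lists the gene, black ticks all cells outside gdT_TypeII and grey crosses the derived share in cells of neither type. The position of the crosses to the left follows from the choice of genes; red lies to the right of blue for 15 genes and to its left for 10.

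The 4 surface receptor genes differed from other cells by 8.4 to 29.7 points. Besides *Il1rl1*, the high-affinity IL-2 receptor chain *Il2ra* was at 87.6% against 61.8% of other cells and 81.0% of ILC2. It was listed for 6 types, among them ILC1_ILC3 at 90.7% and gdT_TypeIII_CD163l1 at 86.6%. The cysteinyl leukotriene receptor *Cysltr1* was at 76.6% against 55.4%, with ILC2 at 73.5% and ILC3 at 62.1%. The 3 receptor genes shared with ILC2 all had a higher share in gdT_TypeII.

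*Ccr7*, a receptor that guides naive and migrating lymphocytes to lymph nodes, was at 80.9% of gdT_TypeII against 72.5% of other cells. It was not listed for ILC2 or for any ILC2 subcluster, and the table gives no share of it in ILC2. Higher shares were listed for CD8_Naive at 95.9%, Plasma cell at 93.5% and gdT_Naive at 85.0%, while CD4 and Treg listed it with shares below those of other cells, at 70.6% and 63.6%. Of 11 genes of naive and recirculating lymphocytes it was the 1 listed (9.09%, against 1.67% of all genes).

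Of the ligands, *Tnfsf11* was at 80.7% against 66.5% of other cells, and *Bmp2*, a growth factor of the TGF-beta superfamily, was at 67.5% against 61.5%. Both had a higher share in ILC2, at 89.3% and 80.8%, as did *Csf2*. *Areg* was the 1 ligand of 4 with a slightly higher share in gdT_TypeII. The type 2 cytokine genes *Il13* and *Il5* were listed for ILC2, at 32.4% against 16.6% and at 33.7% against 22.3%, and not for gdT_TypeII. Of 36 genes of a type 2 lymphocyte programme 23 were in the table, and 7 were listed for gdT_TypeII (30.4%, against 1.67% of all genes) and 18 for ILC2, against 8.10% of all genes. The 7 include the 4 genes given as markers of the cluster, so this share was in part fixed by their choice. It is therefore not read as an enrichment. The lists differ in length, so these counts do not rank both types. The ILC2 genes without a gdT_TypeII listing also included the neuropeptide gene *Calca* at 58.1% against 41.5% and *Rora*, a transcription factor needed for ILC2 development, at 93.0% against 72.4%.

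The transcription factors *Gata3* and *Hlf*, which belongs to the PAR leucine zipper family, both had a higher share in gdT_TypeII than in ILC2, with *Hlf* at 75.8% against 66.9%. The same held for 4 of 5 enzyme and transporter genes. The amino acid transporter gene *Slc7a8* was at 82.5% of gdT_TypeII, 73.3% of ILC2 and 57.6% of cells outside gdT_TypeII. The ubiquitin ligase gene *Rnf128* was at 81.9%, 74.3% and 56.3%, and the phosphatase gene *Ptpn13* at 76.8%, 72.8% and 54.9%. The protease gene *Furin* reached 76.4% of gdT_TypeII, close to 74.5% of ILC2. The exception was the heparan sulfate sulfotransferase gene *Hs3st1*, at 69.1% of gdT_TypeII and 73.6% of ILC2.

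A further 8 genes belonged to the immediate early and stress response, which is switched on within minutes of a signal. They were at between 69.1% and 99.2% of gdT_TypeII, but differed from other cells by a median of only 6.0 points. The AP-1 subunit genes *Fosb* and *Fos* were both at 97.2%, against 84.0% and 89.8% of other cells, and at 97.0% and 94.5% of ILC2. *Zfp36l1*, which promotes decay of AU-rich transcripts, was at 99.2% against 92.7%. *Klf6* was at 99.0% against 93.5% and *Nr4a2* at 69.1% against 68.0%. Neither of these last genes was listed for ILC2. *Klf4*, at 77.2% against 71.9%, and *Phlda1*, at 71.3% against 65.8%, had higher shares in ILC2, at 85.7% and 78.7%. *Gadd45b*, a stress sensor, was at 76.8% against 68.6%. By the gene lists, 2 of the 6 AP-1 family genes and 4 of the 26 other immediate early genes in the table were listed for gdT_TypeII (33.3% and 15.4%), against 1.67% of all genes. For ILC2 the counts were 2 and 3, against 8.10% of all genes, so such listings were not particular to gdT_TypeII. The paper cites a report that digestion stress can raise AP-1 genes, and its part here was not tested.

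The remaining 5 genes have varied roles. *Lztfl1*, a regulator of ciliary transport, was at 89.8% of gdT_TypeII against 63.6% of other cells, and was the only one of the 5 with a higher share there than in ILC2, at 83.7%. The prion protein gene *Prnp* was at 76.4% against 58.0%, the scavenger receptor gene *Stab2* at 72.2% against 58.8%, *Mctp1* at 73.6% against 60.8% and *Ccdc184* at 78.9% against 62.9%. In ILC2 these 4 were at 82.1%, 77.2%, 78.6% and 82.0%. *Stab2* is best known from sinusoidal endothelium, but was listed here for gdT_TypeII, ILC2 and ILC2_2.

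Several lists for other cells, some of which the lineage antibodies should remove, had 0 genes listed for gdT_TypeII. These were the lists of 23 genes of type 1 and cytotoxic lymphocytes, 17 of type 3 lymphocytes, 15 of B and plasma cells, 7 of myeloid cells, 12 of basophils and mast cells and 13 of proliferation that were in the table. The same was found for the 11 activation and checkpoint receptor genes, 16 NF-kB and feedback genes and 12 S100, galectin and annexin genes. The only listed genes on the lists of 5 Treg genes, 19 chemokine receptor and adhesion genes and 6 endothelial genes in the table were *Il2ra*, *Ccr7* and *Stab2*. Since 1.67% of all genes in the table were listed for the cluster, 0 on a list of this length is near the share over all genes.

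The 28 genes were then followed into the ILC2 subcluster table, in which a subcluster is compared with the other ILC2s. Since ILC2s are also among the other cells of the first table, the comparisons share cells. Subcluster 3 listed 26 of the 28 genes, where 7.27% of the genes of the cell type table were listed for it, and subcluster 0 listed 17, against 5.24%. In both, every listed gene had a higher share inside the subcluster. The median difference was 15.9 points for the 26 genes in subcluster 3, beside 6.4 points over all 237 genes listed for it. For the 17 genes in subcluster 0 it was 20.2 points, beside 1.4 points over all 300 genes listed. Only 122 and 88 of those genes were in the cell type table, so each pair of medians is over unlike sets of genes. Subclusters 0 and 3 held 42.3% of these ILC2s.

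Both subclusters listed 16 of the genes, which included *Il1rl1*, *Gata3*, *Il2ra*, *Slc7a8* and *Prnp*. *Stab2* had the widest difference in subcluster 0, with 68.4% against 21.7% of other ILC2s, and was at 59.5% of subcluster 3 against 30.1%. The widest difference in subcluster 3 was that of *Hs3st1*, at 75.6% against 36.2%. *Slc7a8* was at 83.3% against 49.9% in subcluster 0 and at 79.6% against 55.4% in subcluster 3. For *Gata3* the differences were only 3.7 and 4.6 points. Subcluster 3 without subcluster 0 listed 10 genes: the ligands *Csf2*, *Areg* and *Bmp2*, the protease *Furin*, and the immediate early and stress genes *Fos*, *Klf4*, *Klf6*, *Nr4a2*, *Zfp36l1* and *Gadd45b*. *Csf2* was at 33.4% of subcluster 3 against 17.9% of other ILC2s, *Bmp2* at 30.2% against 10.3%, and *Nr4a2* at 27.0% against 13.3%. *Furin* differed there by only 0.1 points. *Hlf* was listed for subcluster 0 without subcluster 3, and *Ccr7* for no subcluster.

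Subcluster 9 listed 5 of the 28 genes (17.9%) against 3.93% of all genes, among them *Prnp* at 74.1% against 31.5%. Subclusters 7 and 8 listed 3 each (10.7%), *Areg* and *Furin* in both, against 9.89% and 6.73% of all genes. Fewer of the listings in subclusters 7, 8 and 9 were kept by the filter on the authors' adjusted p-value given below. Subcluster 5, for which 7.27% of all genes were listed, held *Fosb*, *Klf6*, *Lztfl1* and *Ptpn13* (14.3%), and all 4 were at smaller shares than in other ILC2s, such as *Ptpn13* at 25.2% against 60.2%. Subclusters 1 and 2 listed 1 gene each, *Gadd45b* and *Furin*, against 6.85% and 3.51%. Subclusters 4 and 6 listed 0, against 26.9% and 4.47%.

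**Figure D4:**
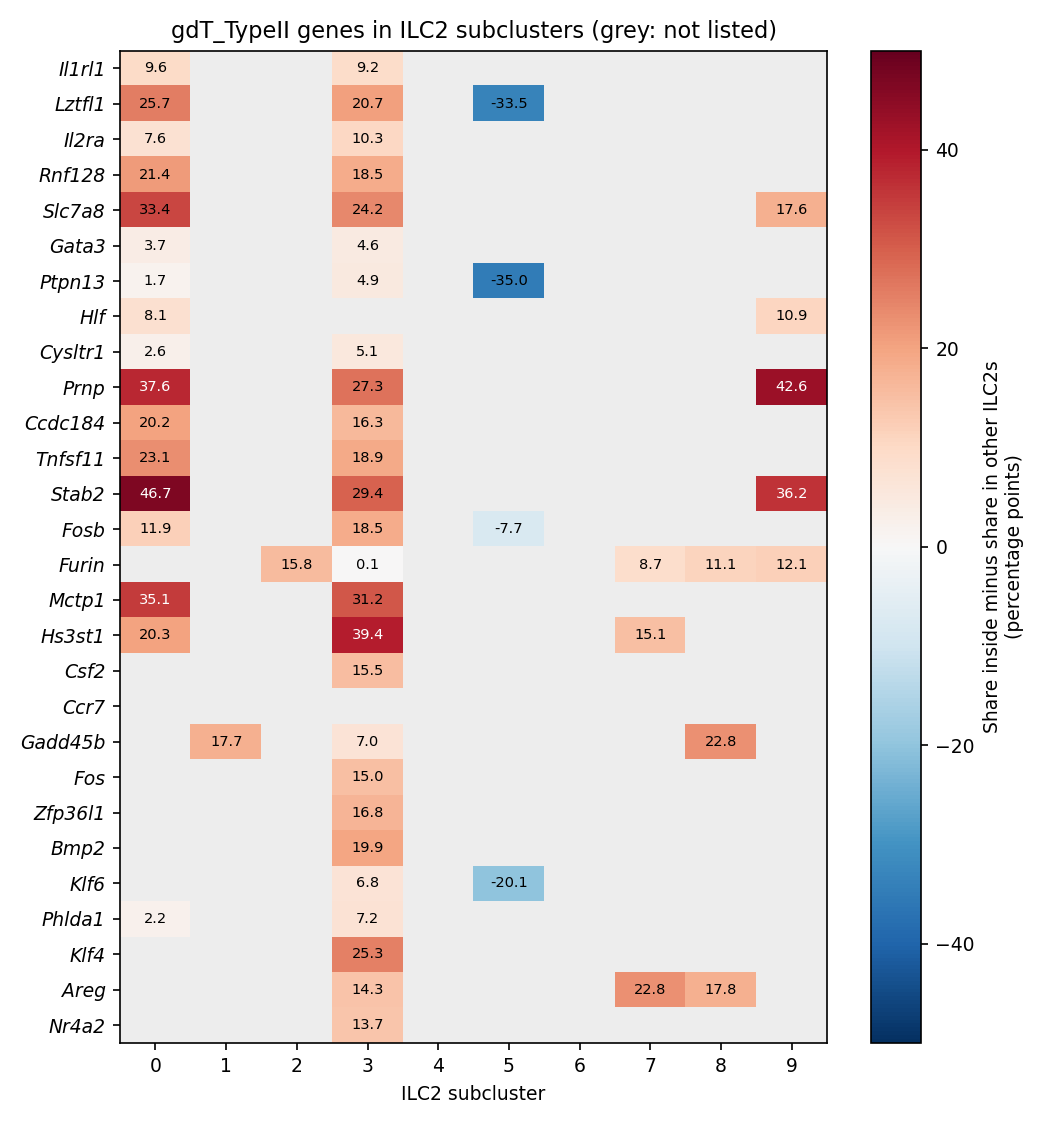
Share of cells inside an ILC2 subcluster minus that in other ILC2s (percentage points, colour and printed value) for the 28 genes of gdT_TypeII (rows) in the 10 ILC2 subclusters (columns); grey cells are genes not listed. Filled cells gather in subcluster 3 with 26 genes and subcluster 0 with 17, and the 4 blue cells are in subcluster 5.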

How the data were processed

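Single-cell libraries of sorted liver and lung cells were mapped to mm10 with Cell Ranger by the authors (submitters' processing notes), flow cytometry served to take out doublets and dead cells, cells with few genes were left out, and counts were scaled per cell, log transformed and clustered in Seurat. FindAllMarkers was run on the 4 merged libraries, and the assay behind each table is not given in the sources used here. The cell type table tested 2000 features and its shares outside a type were high, with *Cd3e* in 83.5% of all cells. Whether its values are integrated across libraries, in which case a value above 0 need not be a detected transcript, could not be told. The deposited fraction columns hold, to 3 decimals, the proportion of cells above 0 inside a cluster and outside it. The deposited log2 fold changes and p-values are the authors' own comparisons. Their values are not reported. They served only to see that no listing had a negative log2 fold change, to count the features tested, and as a filter in 1 alternative.

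Sizes were solved by least squares from genes listed for at least 2 types, since the share outside plus the size times the difference of shares equals the share in all cells. Tested on simulated shares for the 21 types and 1679 genes, the sizes were recovered with a largest error of 0.0319 percentage points. No doublet caller could be run on these tables. Depth is unknown. The paper gives total numbers of cells, but the tables give none, and no interval was derived for a share.

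The genes and lists were chosen with earlier results of these data known. Named were all 28 genes, and from 22 gene lists those listed for the cluster. Roles were assigned after the genes were seen. Coordinates are from GENCODE M21 (GRCm38); the authors' annotation is not given in the sources used here. Scripts ran in Python with pandas and numpy.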

Additional observations from a re-analysis of the deposited data

How the results depend on the processing

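Listings were filtered in 4 ways, by the authors' adjusted p-value under 0.05, by a share of cells above that of other cells, by a share at least 0.1 above it, and by a share of at least 0.5 inside the cluster. Requiring a share at least 0.1 above other cells left 18 genes for gdT_TypeII, of which 18 were also listed for ILC2 and 14 for an ILC2 subcluster; the other 3 filters left 27 or 28 genes, 24 or 25 shared with ILC2 and 20 to 27 listed for a subcluster. The stricter filter removes genes by construction, among them *Areg*, *Ccr7*, *Fos*, *Klf6* and *Nr4a2*. With an adjusted p-value under 0.05, the 28 genes kept 26 listings in subcluster 3 and 17 in subcluster 0, but 2 of 5 in subcluster 9, 2 of 3 in subcluster 7 and 1 of 3 in subcluster 8. The solved size was between 1.56% and 1.59% under 6 other fits. No paired analysis was possible because the deposited values were pooled over the 4 single libraries. The share scale of the cell type table, the missing depth and the absence of a share for unlisted genes limit what these lists can show about T cell receptor genes in this cluster.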
